A study of Homo sapiens with 4 samples.

Results

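The antigen presentation genes described here are 43 genes of HLA class I and class II, peptide loading, the immunoproteasome and immune ligands. They were chosen by gene symbol, as every probe set whose platform annotation gives one of these symbols and no other. This gave 108 of the 54613 probe sets on the array and 41 of the 43 genes, among 19775 genes measured in all. PSME2, the beta subunit of the PA28 activator, appears only on a probe set shared with other symbols, and IFI30, a lysosomal thiol reductase, on no probe set with a single symbol, so neither has a value.

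The cells are NUGC3, a long-established cell line from a human gastric cancer, whose total RNA was hybridised to 4 single-colour Affymetrix arrays, 2 per group. The control group is NUGC3 with wild-type PRMT6. The PRMT6-KO group is NUGC3 infected with a lentivirus carrying the lentiCRISPR v2 vector (Cas9 and a guide against PRMT6), selected with puromycin and cloned by limiting dilution. All cells were grown in RPMI1640 with fetal bovine serum and antibiotics, and no cytokine treatment is named for either group. The number of knockout clones behind the arrays, and any vector or puromycin in the controls, are not stated in the sources used here, so the effect of the deletion cannot be told apart from that of cloning, virus or selection. Whether arrays 1 and 2 of a group are separate cultures is unstated in the labels. The p-values reflect only how these 4 samples vary, and that variation may be technical.

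PRMT6, an arginine methyltransferase, puts asymmetric dimethyl marks on histones and other proteins. MHC class I molecules show peptides from the cell's own proteins to CD8+ T cells. The peptides are cut by the proteasome, of which the immunoproteasome is a form with exchanged catalytic subunits, carried into the endoplasmic reticulum by the TAP transporter, trimmed by ERAP enzymes and loaded with the help of tapasin and chaperones. MHC class II molecules show peptides from endosomes and are mainly made by professional antigen-presenting cells, though interferon gamma can induce them, the immunoproteasome and class I genes in epithelial cells.

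The guide is shown first because it defines the knockout. The capitals mark the 12 bases at its 3′ end, next to where the PAM lies.
PRMT6 guide: gacggtacTGGACGTGGGCG

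Promoter windows of 5 genes are shown, and no array value or test depends on them. They are those of PSMB10, PSMB9 and TAP1, the neighbour of PSMB9. The others are CD74, the member with the widest difference, and HLA-C, the class I chain with the smallest p. Each window covers 250 bases before and 50 bases after the annotated start, 5′ to 3′ on the gene's own strand, from RefSeq on GRCh38.p14. Capitals mark matches to the core of the interferon response element, which is GAAA 2 times over with any 2 bases between, and to CCAAT, the letters of the box bound by NF-Y. Both motifs were searched on both strands.
PSMB10, chr16:67936801-67937100, minus strand: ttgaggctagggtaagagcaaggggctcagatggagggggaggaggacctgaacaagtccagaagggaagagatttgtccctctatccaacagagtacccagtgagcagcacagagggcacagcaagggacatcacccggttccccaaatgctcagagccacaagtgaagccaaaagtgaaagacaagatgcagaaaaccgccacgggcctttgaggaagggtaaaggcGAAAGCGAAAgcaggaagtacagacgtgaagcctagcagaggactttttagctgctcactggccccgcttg
PSMB9, chr6:32853942-32854241, plus strand: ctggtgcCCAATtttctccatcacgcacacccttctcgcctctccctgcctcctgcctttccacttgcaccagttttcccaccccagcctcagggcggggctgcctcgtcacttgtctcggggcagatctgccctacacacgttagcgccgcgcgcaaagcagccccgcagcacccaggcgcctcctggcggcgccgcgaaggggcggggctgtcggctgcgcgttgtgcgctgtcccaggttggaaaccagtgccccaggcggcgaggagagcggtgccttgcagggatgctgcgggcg
TAP1, chr6:32853655-32853954, minus strand: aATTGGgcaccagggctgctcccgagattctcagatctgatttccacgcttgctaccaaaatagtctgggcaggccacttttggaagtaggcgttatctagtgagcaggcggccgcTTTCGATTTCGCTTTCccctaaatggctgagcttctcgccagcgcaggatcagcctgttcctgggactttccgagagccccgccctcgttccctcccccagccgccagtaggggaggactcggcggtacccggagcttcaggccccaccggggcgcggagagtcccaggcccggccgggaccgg
CD74, chr5:150412861-150413160, minus strand: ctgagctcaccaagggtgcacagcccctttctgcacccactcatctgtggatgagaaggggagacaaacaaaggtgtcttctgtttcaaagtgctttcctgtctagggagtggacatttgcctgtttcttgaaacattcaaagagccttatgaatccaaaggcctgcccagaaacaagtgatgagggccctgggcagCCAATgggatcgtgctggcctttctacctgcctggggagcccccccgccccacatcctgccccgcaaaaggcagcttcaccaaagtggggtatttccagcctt
HLA-C, chr6:31272043-31272342, minus strand: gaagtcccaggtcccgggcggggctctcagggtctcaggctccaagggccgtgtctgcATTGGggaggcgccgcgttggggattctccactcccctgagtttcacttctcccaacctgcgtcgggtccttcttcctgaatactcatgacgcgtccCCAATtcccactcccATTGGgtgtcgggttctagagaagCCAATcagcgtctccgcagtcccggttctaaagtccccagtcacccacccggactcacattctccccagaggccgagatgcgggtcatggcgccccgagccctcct
The capitals in PSMB10 are 1 match to the interferon response core. In TAP1 they are 2 overlapping matches to it on the opposite strand and, near the window's upstream end, 1 CCAAT on the opposite strand. TAP1 and PSMB9 are transcribed away from each other, their windows overlap by 13 bases, and the CCAAT letters of both lie in that overlap, so they are the same bases. CD74 holds 1 CCAAT, and HLA-C holds 4, with 2 on each strand.

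The deposited values are log2 expression from RMA. The medians of the 4 arrays lay between 4.73 and 4.77. Over all measured genes, each read from its brightest probe set, arrays of the same group correlated at 0.995 (control) and 0.998 (knockout). Between groups the correlations were 0.992 to 0.995. PRMT6, the targeted gene, read 7.66 and 7.66 on the control arrays and 6.87 and 6.91 on the knockout arrays. Both knockout arrays lay below both controls, 1.70-fold lower in the mean (log2 fold change -0.77, SE 0.073, limma adjusted p = 0.0502), just outside the threshold of an adjusted p under 0.05. Where its probe set lies relative to the guide's target was not tested. Of 10 markers of a gastric epithelial carcinoma, 8 had means above 4.75, the median of all values, with EPCAM between 11.89 and 12.05 and KRT18 between 13.6 and 13.8, and CLDN18 and TFF3 did not. None of the 10 passed, but 5 had both knockout arrays higher and 3 lower, beside 21.7% and 21.6% of all genes. MUC1, a mucin, read 6.33 and 6.33 in controls and 7.03 and 6.90 in knockout (log2 fold change 0.64, limma adjusted p = 0.0897). CDH1, E-cadherin, read 10.53 and 10.48 against 10.14 and 10.16 (-0.35, limma adjusted p = 0.187). The log2 values of the 10 summed to 89.50 and 89.32 in controls and 89.93 and 89.31 in knockout. This sum and the other marker sums below are of log2 values, not of total signal. Of the leukocyte markers, 13 of 16 were measured, 5 lay above that median, their means ran from 2.62 to 5.84, and the defining marker PTPRC (CD45) read 2.65 and 2.89 in controls and 2.47 and 2.47 in knockout (log2 fold change -0.30, limma adjusted p = 0.392), followed by CD163, a macrophage marker, at -0.27 (0.523). The log2 values of the leukocyte markers summed to 53.85 and 55.99 in controls and 53.61 and 53.90 in knockout. Of the dendritic cell markers, 5 of 6 were measured, with sums of 29.67 and 30.03 against 30.38 and 30.21. LAMP3 read 7.65 and 7.37 in controls and 7.84 and 7.87 in knockout (log2 fold change 0.35, limma adjusted p = 0.367). CD83 read 8.32 and 8.17 against 8.37 and 8.51 (0.20, limma adjusted p = 0.514). These 2 of the 5 were higher on both knockout arrays. The groups overlapped for the others, XCR1 (0.082), FLT3 (0.083) and CD1C (-0.27). Whether LAMP3 and CD83 bear on the differences described below was not tested. The 7 fibroblast and endothelial markers summed to 30.97 and 33.72 in controls and 31.48 and 31.33 in knockout, with the smallest p for DCN at -0.50 (limma adjusted p = 0.528) and COL1A2 at -0.46 (0.681).

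Over all measured genes, limma called 94 changed at an adjusted p under 0.05, which is 0.475%, with 0.359% higher and 0.116% lower in the knockout. None of the 41 antigen presentation genes was among them: 0 passed, and the smallest adjusted p was 0.143. At an unadjusted p under 0.05, 7 members were higher (17.1%) and 1 was lower, against 6.12% and 5.83% of all genes. For 16 members (39.0%) both knockout arrays lay above both controls and for 6 both lay below, while 19 overlapped. Among all genes 21.7% lay wholly above and 21.6% wholly below. The median log2 fold change of the members was 0.044, beside -0.0091 for all genes, and single members ran from -0.21 to 0.86. For 40 of the 41, the 95% interval lay within a 2-fold change either way, and CD74 was the exception. In RNA from whole cultures, a difference in the share of cells that express a gene and a difference in RNA per cell cannot be told apart.

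Taken by probe set, 0 of the 108 passed (0.148% of all probe sets did), and the smallest limma adjusted p was 0.313. At an unadjusted p under 0.05, 7 member probe sets were higher and 1 was lower, together 7.41% beside 8.65% of all probe sets (4.65% higher and 4% lower). The lower one was a probe set of MR1, not its brightest, at a log2 fold change of -0.39. In the gene fit the 1 lower member was HLA-C. Both knockout arrays lay above both controls for 32 probe sets and below for 18, which together is 46.3%, beside 38.7% of all probe sets (19.7% above and 18.9% below). Where limma let its prior spread follow the signal level, 7 of the 41 genes passed (17.1%): PSMB9, PSMB10, RFX5, CD74, MICA and MICB rose and HLA-C fell. That setting called 4.03% of all genes, 2.31% higher and 1.72% lower. Of the members, 33 of the 41 lay above the median of all values, beside 12761 of all 19775 genes. How far this difference in signal level enters the share called in that fit was not tested. The adjusted p of the 7 ran from 0.0138 for PSMB9 to 0.0339 for MICB and CD74 in that limma fit. On the level of probe sets it called 2 of the 108, PSMB9 (limma adjusted p = 0.0411) and 1 of HLA-C (0.0453), beside 1.46% of all probe sets (0.817% higher and 0.643% lower).

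**Figure D1:**
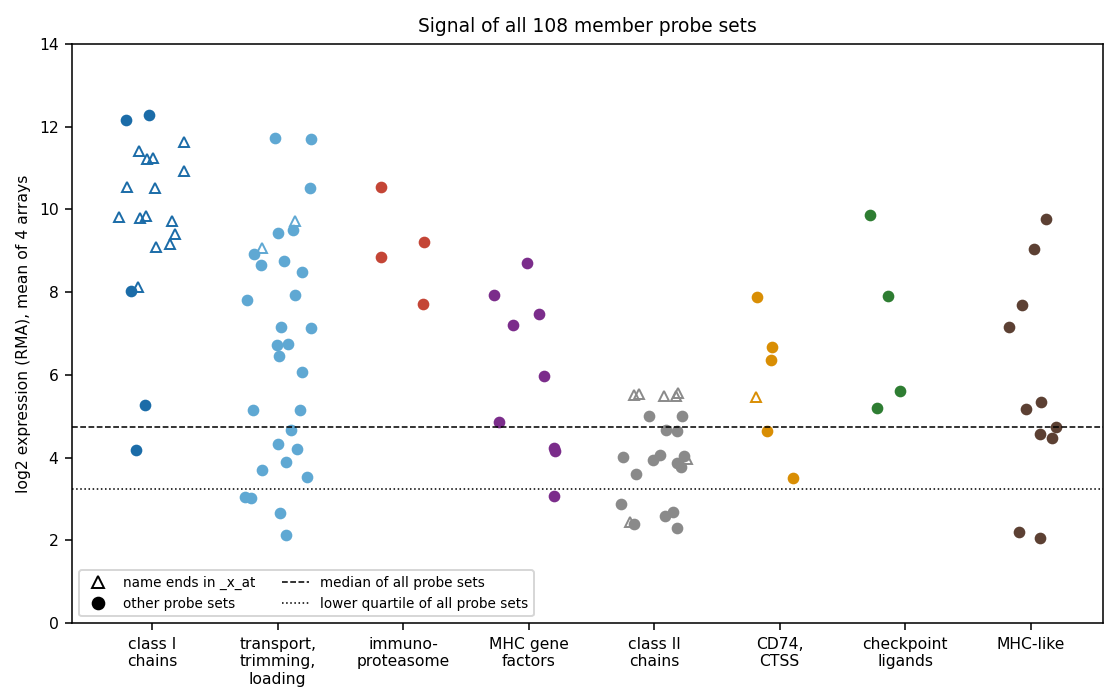
Mean log2 signal over the 4 arrays of each of the 108 probe sets (vertical axis), grouped by role; open triangles are probe sets whose name ends in _x_at, and the dashed and dotted lines are the median (4.75) and lower quartile (3.24) of all values. Of the 20 class I chain probe sets 19 lie above the median, while of the 23 class II probe sets 7 do.

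**Figure D2:**
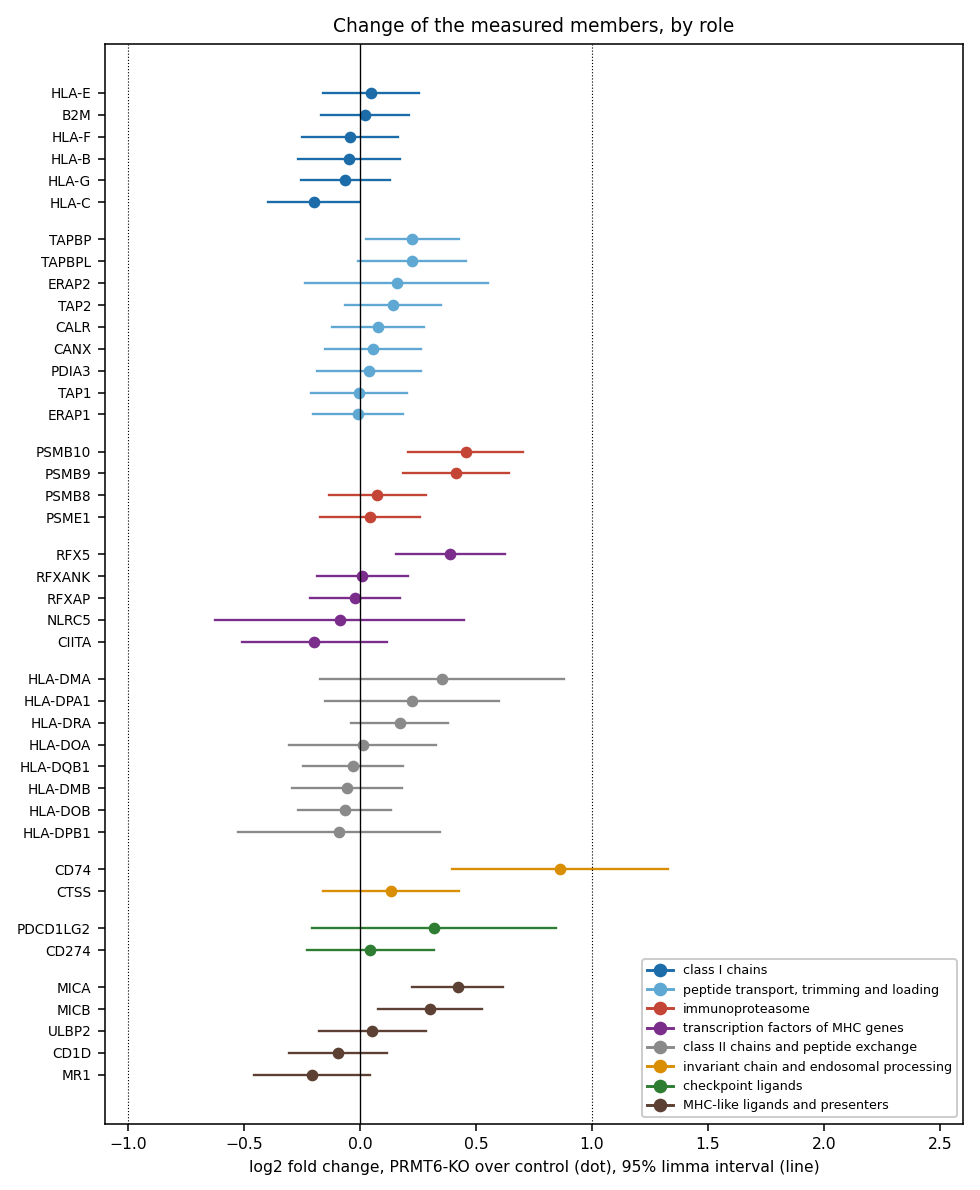
Log2 fold change of the 41 measured genes, knockout over control (dot), with the 95% limma interval (line), grouped and coloured by role; dotted lines mark a 2-fold change. The intervals of PSMB10, PSMB9, RFX5, CD74, MICA, MICB and TAPBP lie above 0 and that of HLA-C below, and only CD74's crosses a 2-fold change.

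The peptide-presenting class I chains had high signals, and none passed. Read from their brightest probe sets, all 6 genes lay above the median of all probe sets, with means from 9.81 to 12.3. For every heavy chain that probe set carries the _x_at ending described below. B2M, the invariant light chain of every class I molecule, read 12.27 and 12.28 in controls and 12.29 and 12.29 in knockout, a log2 fold change of 0.020 with a 95% interval of -0.17 to 0.21. Its knockout arrays lay above its controls by a gap much smaller than that interval. A second bright probe set gave 0.036 with overlapping groups. The remaining one, much dimmer, read 5.19 and 4.62 against 5.93 and 5.34. Its difference was 0.73 (SE 0.28, limma adjusted p = 0.586). The estimates of the B2M probe sets thus differ, but the dim one varied widely within each group. HLA-B, a classical heavy chain, read 11.32 and 11.20 against 11.20 and 11.22, and its groups overlapped. Of the other chains, HLA-E and HLA-F, which are non-classical, overlapped at 0.048 and -0.042, and HLA-G had both knockout arrays lower at -0.063.

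HLA-C, the classical chain that also engages killer-cell receptors, was the one class I gene with an unadjusted p under 0.05. Its brightest probe set read 11.75 and 11.70 in controls and 11.52 and 11.53 in knockout. Both knockout arrays lay below both controls, 1.15-fold lower in the mean (log2 fold change -0.20, SE 0.073, limma adjusted p = 0.410). The 4 probe sets of HLA-C gave -0.15 to -0.20, and in each both knockout arrays were the lower ones. Class I heavy chains resemble each other in sequence, and 15 of their 17 probe sets carry the _x_at ending. It is Affymetrix's mark for probes that may match other sequences too. All 4 of HLA-C, all 3 of HLA-B and all 4 of HLA-G carry it. The 2 heavy chain probe sets without that ending read 8.04 and 7.81 against 8.11 and 8.11 for HLA-E, and 4.38 and 4.02 against 4.16 and 4.16 for HLA-F. That of HLA-F, at a mean of 4.18, was not above the median of all probe sets. How far the chains share signal was not tested.

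Among the 9 genes of peptide transport, trimming and loading, 5 had both knockout arrays above both controls and none had both below, with 4 overlapping and a median of 0.077, beside 21.7% of all genes wholly above and 21.6% wholly below. TAPBP encodes tapasin, which bridges class I molecules to the TAP transporter. It read 9.35 and 9.28 in controls and 9.53 and 9.55 in knockout, 1.17-fold higher (log2 fold change 0.23, SE 0.075, limma adjusted p = 0.367). The groups were well apart on that probe set, but its other 2 gave 0.011 and 0.24 with overlapping groups. TAPBPL encodes TAPBPR, a tapasin relative that edits the bound peptides. It read 5.10 and 4.97 against 5.23 and 5.29 (log2 fold change 0.22, SE 0.087, limma adjusted p = 0.430), and its second probe set read 4.52 and 4.49 against 4.81 and 4.87, a difference of 0.33. On both probe sets the 2 knockout arrays were the higher.

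The TAP transporter is a dimer of TAP1 and TAP2, and neither subunit passed. TAP1 read 8.49 and 8.51 in controls and 8.54 and 8.45 in knockout, so the groups overlapped (log2 fold change -0.0033, 95% interval -0.21 to 0.20). TAP2 read 8.74 and 8.64 against 8.84 and 8.83 (log2 fold change 0.14, SE 0.078, limma adjusted p = 0.554), with its knockout arrays above its controls, while its other 3 probe sets gave -0.19 to 0.025 and overlapped. The ER aminopeptidase ERAP1 overlapped at -0.0089, its other 4 probe sets ran from -0.23 to 0.35, and its relative ERAP2, at 0.16, was not above the median of all probe sets. The ERAP2 value was 0.00030 without knockout array 1 and 0.047 without control array 2, and 0.32 and 0.27 without the other array of each group. Of the chaperones and the oxidoreductase of the loading complex, CALR (0.077) and CANX (0.056) had both knockout arrays higher and PDIA3 overlapped at 0.040.

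Of the 4 measured immunoproteasome genes, 3 had both knockout arrays above both controls, beside 21.7% of all genes, and the median was 0.24. PSMB10, the inducible subunit MECL-1, read 7.57 and 7.40 in controls and 7.91 and 7.96 in knockout. That is 1.37-fold higher (log2 fold change 0.46, SE 0.093, limma adjusted p = 0.181), with a gap between the groups wider than the spread inside either. PSMB9, the inducible subunit LMP2, read 9.07 and 8.94 against 9.38 and 9.45, 1.33-fold higher (log2 fold change 0.41, SE 0.086, limma adjusted p = 0.187). Here too the knockout arrays stood apart from the controls. PSMB8, the inducible subunit LMP7, read 8.76 and 8.85 against 8.86 and 8.90, a difference of 0.075 with a 95% interval of -0.13 to 0.28. PSME1, the alpha subunit of the PA28 activator, overlapped at 0.043. Each of the 4 genes is read by 1 probe set.

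The constitutive core of the proteasome gives the counterpart. Of its 14 listed subunits 13 were measured, 0 passed, and the median was -0.062. Both knockout arrays were higher for 2 and lower for 5, beside 21.7% and 21.6% of all genes. At an unadjusted limma p under 0.05, 0 were higher and 0 lower. PSMB5, the subunit that PSMB8 replaces, read 10.11 and 10.24 in controls and 9.94 and 10.03 in knockout (log2 fold change -0.19, limma adjusted p = 0.508). PSMB6, replaced by PSMB9, and PSMB7, replaced by PSMB10, gave -0.095 and -0.080, with both knockout arrays lower in each, and PSMA1, a structural subunit, gave -0.17 (limma adjusted p = 0.563). Of 7 assembly factors and PA28 gamma components, 0 passed and the median was -0.025. The smallest p values there belonged to PSMG3, an assembly chaperone, at 0.051 (limma adjusted p = 0.827) and PSME3, PA28 gamma itself, at -0.047 (0.834).

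The transcription factors of MHC genes also held none that passed. Of the 5, 1 had both knockout arrays higher and 1 lower, beside 21.7% and 21.6% of all genes, and 3 overlapped. RFX5, the DNA-binding subunit of the RFX complex on MHC promoters, read 8.59 and 8.45 in controls and 8.95 and 8.87 in knockout. That is 1.31-fold higher (log2 fold change 0.39, SE 0.088, limma adjusted p = 0.211), and on its second probe set, at 0.19, both knockout arrays were again higher. Its partners RFXANK (0.0098, negative after quantile or loess normalization) and RFXAP (-0.022) overlapped, although a dimmer probe set of RFXAP gave 0.22 with both knockout arrays higher. CIITA, the master activator of class II genes, read 4.82 and 5.08 against 4.81 and 4.70 (log2 fold change -0.20), while its dimmer 2 probe sets gave 0.061 and 0.19. Without control array 2 the CIITA value was -0.071, and without control array 1 it was -0.32. NLRC5, the corresponding activator of class I genes, read 4.04 and 4.38 against 3.90 and 4.34, so it overlapped and was not above the median of all probe sets. In the list of X and Y box factors and chromatin partners, 10 of 10 were measured, 0 passed and the median was 0.0026. KAT2B, a histone acetyltransferase, gave 0.37 (limma adjusted p = 0.554) and EZH2, a histone methyltransferase, 0.12 (0.579).

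Class II chains were dim on these arrays. Only 3 of the 8 genes lay above the median of all probe sets, and the means ran from 3.61 to 5.56. HLA-DRA, the invariant alpha chain of HLA-DR, read 3.91 and 3.95 in controls and 4.15 and 4.06 in knockout (log2 fold change 0.17, SE 0.078, limma adjusted p = 0.489). Both knockout arrays were the higher, at a signal that was not above that median in any array. HLA-DMA, one chain of the peptide exchange factor HLA-DM, read 4.04 and 3.50 against 4.05 and 4.20, a difference of 0.35 that is 0.088 without control array 2. Its partner HLA-DMB overlapped at -0.054. HLA-DPA1 gave 0.22 (0.093 without control array 1, 0.097 without knockout array 2 and 0.35 without either of the others) and HLA-DPB1 -0.091, both overlapping, and HLA-DQB1 (-0.030) and the HLA-DM modulators HLA-DOA (0.011, negative after quantile or loess normalization) and HLA-DOB (-0.065) gave small differences. HLA-DOB was the only class II gene with both knockout arrays lower.

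CD74, the invariant chain that guides class II molecules to endosomes, had the widest difference of all members. It read 5.72 and 6.14 in controls and 6.91 and 6.67 in knockout. Both knockout arrays lay above both controls, 1.82-fold higher in the mean (log2 fold change 0.86, SE 0.17, limma adjusted p = 0.181, 95% interval 0.40 to 1.33). With any 1 array left out the log2 fold change lay between 0.66 and 1.07, but with the mean of its 3 probe sets it was 0.24 (limma adjusted p = 0.530). Its other 2 probe sets were dimmer: one read 4.58 and 4.69 against 4.63 and 4.68, the other 3.46 and 3.74 against 3.38 and 3.48, and in neither did the groups separate. CTSS, cathepsin S, which trims the invariant chain, read 7.93 and 7.71 against 7.90 and 8.02 and overlapped.

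In the list of endosomal proteases and class II turnover, 1 of 12 passed, beside 0.475% of all genes. Both knockout arrays were higher for 5 of the 12 and lower for 1, beside 21.7% and 21.6% of all genes. CTSH, the lysosomal aminopeptidase cathepsin H, rose from 7.64 and 7.60 in controls to 8.70 and 8.83 in knockout, 2.20-fold (log2 fold change 1.14, SE 0.084, limma adjusted p = 0.0294). The groups lay far apart compared with the spread inside each. CST3, the cathepsin inhibitor cystatin C, gave -0.18 (limma adjusted p = 0.497), and the median of the list was 0.052. With any 1 array left out, limma called 0 genes of the whole table, CTSH included.

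**Figure D3:**
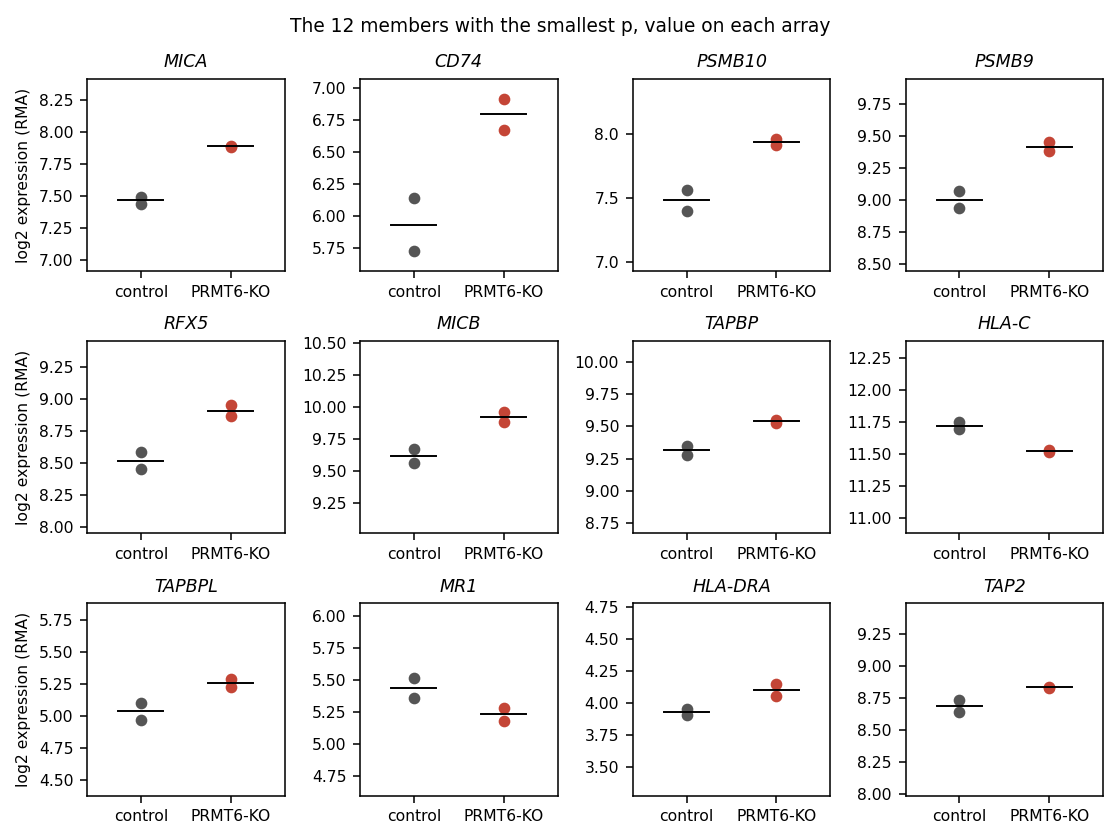
Log2 expression on each array of the 12 antigen presentation genes with the smallest p, control (grey) and PRMT6-KO (red), with the group mean as a line; every panel spans the same log2 range around its own centre. In each panel the 2 groups are apart, with HLA-C and MR1 lower in the knockout and the other 10 higher.

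Of the 5 MHC-like ligands and presenters, 2 had both knockout arrays higher and 2 lower, beside 21.7% and 21.6% of all genes. The higher 2 were the MIC pair, MICA and MICB, the lower 2 were MR1 and CD1D, and 1 overlapped. MICA and MICB are stress-induced ligands of the NKG2D receptor on killer cells. MICA read 7.44 and 7.50 in controls and 7.89 and 7.89 in knockout, 1.34-fold higher (log2 fold change 0.42, SE 0.073, limma adjusted p = 0.143), the smallest p of all members. MICB read 9.57 and 9.68 against 9.88 and 9.96, 1.23-fold higher (log2 fold change 0.30, SE 0.084, limma adjusted p = 0.290). In both genes the knockout arrays stood above the controls by more than either pair differed. ULBP2, another NKG2D ligand, overlapped at 0.054. MICA lies between HLA-B and MICB on chromosome 6, and each of MICA and MICB is read by 1 probe set.

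MR1, which presents vitamin metabolites to MAIT cells, read 5.51 and 5.36 in controls and 5.18 and 5.28 in knockout (log2 fold change -0.21, SE 0.094, limma adjusted p = 0.488). Its other 5 probe sets ran from -0.39 to 0.10. CD1D, a lipid-presenting molecule, was near the floor of the array: its mean of 2.07 lay below the lower quartile of all values. Its difference was -0.097, with both knockout arrays lower.

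The checkpoint ligands did not pass. CD274, which is PD-L1, read 9.87 and 9.79 in controls and 9.77 and 9.98 in knockout, so the groups overlapped (log2 fold change 0.044, 95% interval -0.23 to 0.32). PDCD1LG2, which is PD-L2, read 5.72 and 5.18 against 5.74 and 5.80, a difference of 0.32 (SE 0.20, limma adjusted p = 0.590) that is 0.044 without control array 2.

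Among 23 other immune ligands 21 were measured and 1 passed, beside 0.475% of all genes. NCR3LG1, known as B7-H6 and a ligand of the killer-cell receptor NKp30, rose from 3.98 and 4.04 to 5.18 and 5.31, 2.36-fold (log2 fold change 1.24, SE 0.086, limma adjusted p = 0.0242). CD70, the ligand of CD27, read 7.63 and 7.20 against 8.31 and 8.30 (log2 fold change 0.89, limma adjusted p = 0.148) and did not pass. Of the 21, 6 had both knockout arrays higher and 1 lower, beside 21.7% and 21.6% of all genes, and the median was 0.022.

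Interferon gamma is a common inducer of these genes, so its signalling parts and other targets were counted beside them. Of 13 signalling genes 11 were measured and 0 passed, with a median of -0.0011. Of the 11, 2 lay wholly higher and 5 wholly lower, beside 21.7% and 21.6% of all genes. IRF1, a transcription factor that drives many of the members, read 7.60 and 7.60 in controls and 8.15 and 8.13 in knockout (log2 fold change 0.54, SE 0.072, limma adjusted p = 0.0886), while SOCS3, a feedback inhibitor, read 7.46 and 7.55 against 7.11 and 7.13 (log2 fold change -0.39, limma adjusted p = 0.176). The widest difference of the list, named after its values were seen, was that of IRF9, the DNA-binding part of the ISGF3 activator, at 7.48 and 7.05 in controls and 6.47 and 6.45 in knockout (log2 fold change -0.81, limma adjusted p = 0.179). Of 12 interferon gamma-induced genes outside antigen presentation, 0 passed, 7 had both knockout arrays higher and none lower, beside 21.7% and 21.6% of all genes, and the median was 0.14. The chemokine CXCL10 read 7.22 and 6.95 against 8.10 and 8.34 (log2 fold change 1.14, limma adjusted p = 0.0756), and IDO1, which breaks down tryptophan, gave 0.55 (limma adjusted p = 0.103).

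Promoter letters were counted for the 36 members with a RefSeq window. The interferon response core was present in the windows of 13 of these genes, in 24.5% of the 53 member windows, beside 3.57% of all 35116 windows of the same length. Of those 13 genes 12 were measured: 6 had both knockout arrays higher (PSMB10, RFX5, TAPBP, TAP2, PSMB8 and B2M), none had both lower and 6 overlapped (among them TAP1, CD274 and PSME1), with a median of 0.060 and beside 21.7% and 21.6% of all genes. B2M among the 6 differed by 0.020, and TAP2 by 0.14 but by -0.0023 with the mean of its probe sets. CCAAT was in 50.9% of member windows, beside 34.6% of all, and the 23 measured genes with it split into 9 wholly higher, 5 wholly lower and 9 overlapping, with a median of -0.0033. TTCNNNGAA, the gamma activated site, was in 7.55% of member windows, beside 7.66% of all. It was found for MR1, PSMB8, TAP1 and CD274, of which PSMB8 lay wholly higher and MR1 wholly lower. A gene can have several windows, and the TAP1 window shown above does not hold this site. These are matches of letters and say nothing of binding. Of all 43 listed members, with or without a window, 21 lie on chromosome 6, and the windows of the members are not independent of each other.

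**Figure D4:**
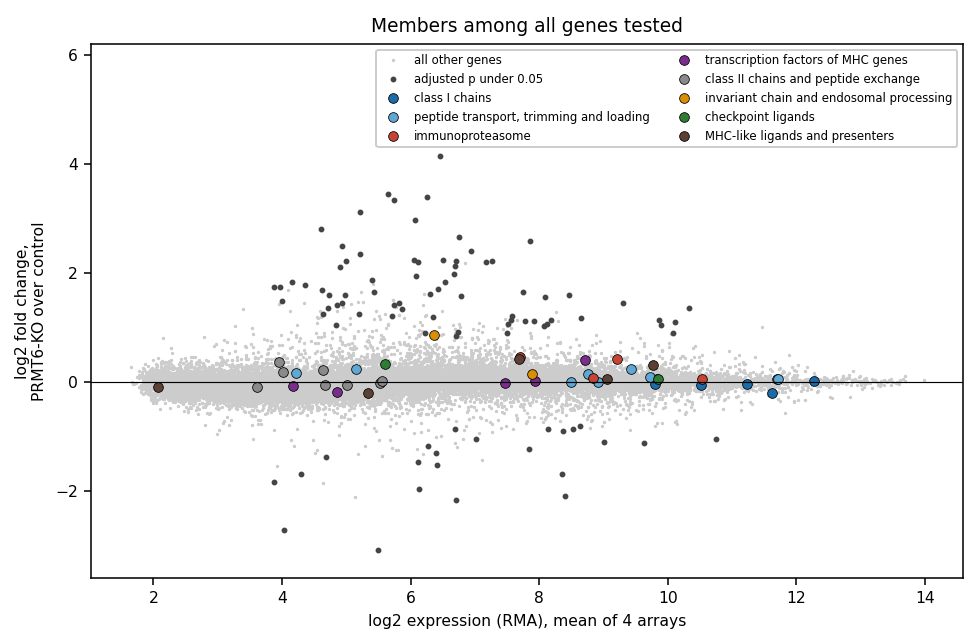
Log2 fold change, knockout over control (vertical axis), against mean log2 expression over the 4 arrays (horizontal axis) for all genes tested (grey), those with an adjusted p under 0.05 (black) and the antigen presentation genes coloured by role. The members lie between -0.21 and 0.86, inside the grey cloud, with CD74 the highest of them.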

How the data were processed

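The authors deposited 1 table of log2 expression per probe set, made with affy and RMA, per the submitters' processing notes, in versions not stated there. RMA by its usual definition equalises the arrays, so a change shared by most genes would not be seen, and differences of dim probe sets are compressed. Arrays have no read depth, and the small number of arrays limits the precision. All 4 arrays were used as deposited. Symbols came from the platform annotation, which can be old; 41091 probe sets had 1 symbol, 1801 several and 11721 none. Each gene was read from its brightest probe set, by the mean of all 4 arrays.

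Knockout and control were compared with limma 3.58.1 (R 4.3.3; lmFit and eBayes, group as the only term, two-sided, Benjamini-Hochberg over all 19775 genes, or all probe sets), called at an adjusted p under 0.05. SE and intervals are moderated (prior degrees of freedom 2.48). With 2 arrays against 2 an exact permutation test cannot go below 0.333. The steps were tested on simulated arrays. Level is given against the median of all values, which is no measure of background. A fold is the knockout over the control mean on the antilog scale, or the inverse where lower.

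By rule, array values with SE and adjusted p are given for members called changed, for the 12 members with the smallest p and for the one with the smallest p of each role, and the 2 genes of smallest p are named in each other list; further genes were named after their values were seen. The members and lists were chosen with earlier results of these data known. Promoter windows are from RefSeq (GRCh38.p14), matched by symbol for 36 of the 43 members.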

Additional observations from a re-analysis of the deposited data

How the results depend on the processing

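The count of antigen presentation genes called changed was 0 under quantile and cyclic loess normalization, with the mean of a gene's probe sets, with genes above the median level alone, without _x_at probe sets (38 members, an alternative chosen after seeing the data); with an intensity trend it was 7, and 2 of the probe sets. The whole table moved more: 94 genes were called as analysed, 195 after quantile and 231 after loess normalization, 138 with the mean of probe sets, 309 above the median level and 797 with the trend. With 1 array left out, 0 genes of the whole table and 0 members were called; a group then has 1 array and is assumed to vary like the other, so that 0 says nothing of the members' stability. The number of members higher at an unadjusted p under 0.05, 7 as analysed, ran from 3 to 9 with 1 array left out: 3 without knockout array 2, 4 without knockout array 1, 6 without control array 2 and 9 without control array 1. The number lower, 1 as analysed, was 0 after quantile or loess normalization, with the mean of probe sets and without _x_at probe sets, and 0 to 2 with 1 array left out. The cause was not tested.

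With the replicate number as a block, 0 members and 0 genes of the whole table were called, and at an unadjusted p under 0.05 the counts of members were 6 higher and 0 lower. The deviations of arrays with the same number correlated at -0.066 over all genes. This value cannot tell whether such arrays shared a culture or a day, and the labels do not say.

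Of the 41 genes, 24 kept their direction under each of the 11 alternatives that gave them a value and 17 did not. With the mean of probe sets TAP2 turned to -0.0023, ERAP1 to 0.083, PDIA3 to -0.0096, CIITA to 0.017, RFXAP to 0.10, HLA-DQB1 to 0.050 and HLA-DOA to -0.072. RFXANK turned to -0.031 after quantile and -0.027 after loess normalization, and HLA-DOA to -0.029 and -0.0081. Without _x_at probe sets HLA-DQB1 turned to 0.28 and HLA-DOA to -0.14. With 1 array left out, the sign changed within these ranges: HLA-B -0.11 to 0.014, HLA-F -0.089 to 0.0040, TAP1 -0.046 to 0.040, ERAP1 -0.027 to 0.0090, PDIA3 -0.025 to 0.11, PSME1 -0.012 to 0.099, NLRC5 -0.31 to 0.14, RFXANK -0.014 to 0.033, HLA-DPB1 -0.31 to 0.13, HLA-DQB1 -0.086 to 0.026, HLA-DMB -0.13 to 0.025, HLA-DOA -0.13 to 0.15, CD274 -0.059 to 0.15 and ULBP2 -0.020 to 0.13. PSMB9, PSMB10, RFX5, CD74, MICA, MICB, TAPBP and HLA-C (not measured without _x_at probe sets) were among the 24, although CD74 went from 0.86 to 0.24 with the mean of its probe sets.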
